A study of Mus musculus with 32 samples.

Results

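Collagens are trimers of polypeptide chains that build the extracellular matrix, and the genes described here encode chains of 6 collagen types together with 1 chaperone. Col6a1 and Col6a2 encode chains of collagen VI, which forms beaded microfibrils around cells. Col4a1 and Col4a2 encode the paired chains of collagen IV, the sheet-forming collagen of basement membranes, including those under the epithelia of the inner ear. Col18a1 encodes collagen XVIII, a basement membrane collagen that carries heparan sulfate chains. Col1a1 and Col1a2 (collagen I), Col3a1 (collagen III) and Col5a2 (collagen V) encode chains of the fibrils of connective tissue. Serpinh1 encodes Hsp47, a chaperone of the endoplasmic reticulum that binds folded procollagen and is itself a heat shock protein.

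The 10 genes were chosen by name, with their contrasts against day 0 in these data already known, and all probe sets whose platform annotation gives 1 of these symbols were taken. This gave 16 of 13057 probe sets on the arrays, and the series holds 6137 genes with a single symbol. Of the 16, 11 were above the noise floor on at least 2 arrays and were tested, while 5 were not (all 3 of Col1a2, the single 1 of Col5a2 and 1 of the 2 of Col3a1). Since the contrasts with day 0 put the genes forward, those values are a description with no test. Tests were made on what the choice did not use directly, the later days against each other and experiment B against A, although these share samples with the contrasts that did.

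The cells were UB/OC-1, a mouse line taken from the embryonic organ of Corti, which holds the hair cells of the cochlea. The line is conditionally immortal through a temperature-sensitive immortalising gene that every sample carries. Day 0 was the culture at 33 °C, which the labels call undifferentiated, and all later days were at 39 °C, under differentiating conditions by the labels. Total RNA was read on 2 oligonucleotide array designs, a and b, so that 16 samples gave 32 arrays. Experiment A held 12 samples (days 0 to 9, 11 and 14) and experiment B held 4 (days 0, 2, 4 and 9). The samples formed 4 phases: 2 at day 0, 4 early (days 1 to 3), 5 middle (days 4 to 7) and 5 late (days 8 to 14), each phase with 1 sample of experiment B. All samples come from 1 cell line, and nothing in the labels says that days were separate cultures, so a p-value covers only the spread among these 16 samples. Temperature, time and the activity of the immortalising gene change together after day 0 and cannot be told apart. In bulk RNA, fewer cells of a type and less RNA per cell cannot be told apart either.

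The floor, below which a value was taken as noise, was an intensity of 141 on design a and 198 on design b. Between 44.3% and 50.8% of probe sets of design a, and between 30.9% and 40.4% of design b, were above it on each array. The noise level of the arrays, measured from their negative values, ran from 68 to 202 on design a and from 75 to 324 on design b, and was lower on the experiment B arrays than on the experiment A arrays of days 0, 2 and 4. Intensities of different probe sets are not set against each other, because each probe set has its own response.

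The genes of several chains lie close together, and their start regions are shown because Col4a1 with Col4a2, and Col6a1 with Col6a2, had like courses over the days. Whether closeness goes with a like course was not tested. Col18a1 lies near Col6a1 on chromosome 10, with 7 genes between, 2 of them coding. Late against early, Col6a1 was at a log2 difference of 1.33 and Col18a1 at -0.50, and neither passed the test described below. Col3a1 and Col5a2 lie side by side on chromosome 1, both dim. RefSeq (GRCm38.p6) gave a start region, from 250 bases before to 50 bases after the start site, for 8 of the 10 genes (Col1a1 and Col5a2 are named only). Col4a1 (minus strand, chr8:11312777-11313076) and Col4a2 (plus strand, chr8:11312555-11312854) are transcribed in opposite directions, and their 2 windows share 78 bases. Capitals mark the shared stretch, which reads as its reverse complement in the other gene, and in it the transcribed parts overlap by 22 bases.
Col4a1: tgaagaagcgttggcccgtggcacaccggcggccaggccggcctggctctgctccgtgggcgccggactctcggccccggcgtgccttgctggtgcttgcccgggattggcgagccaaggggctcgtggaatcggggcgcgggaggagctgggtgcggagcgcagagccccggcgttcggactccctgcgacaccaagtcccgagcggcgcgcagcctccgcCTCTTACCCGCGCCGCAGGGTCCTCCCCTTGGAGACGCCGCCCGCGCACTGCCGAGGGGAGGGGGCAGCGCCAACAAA
Col4a2: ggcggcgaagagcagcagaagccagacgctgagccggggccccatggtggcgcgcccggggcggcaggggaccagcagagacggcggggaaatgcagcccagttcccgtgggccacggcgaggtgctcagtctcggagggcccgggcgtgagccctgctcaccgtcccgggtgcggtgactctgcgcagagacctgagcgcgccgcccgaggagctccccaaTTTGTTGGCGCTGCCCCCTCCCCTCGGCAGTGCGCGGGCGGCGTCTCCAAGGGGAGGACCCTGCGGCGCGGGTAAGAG
Each window holds 1 CCAAT match, that of Col4a1 outside the shared stretch and that of Col4a2 ending on its first base, and the shared stretch holds a GGGCGG match.

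Col6a1 (minus strand, chr10:76725995-76726294) and Col6a2 (minus strand, chr10:76623581-76623880) are neighbours on the same strand, with 2 non-coding genes between them in the annotation and no shared start region. Capitals mark the motif matches.
Col6a1: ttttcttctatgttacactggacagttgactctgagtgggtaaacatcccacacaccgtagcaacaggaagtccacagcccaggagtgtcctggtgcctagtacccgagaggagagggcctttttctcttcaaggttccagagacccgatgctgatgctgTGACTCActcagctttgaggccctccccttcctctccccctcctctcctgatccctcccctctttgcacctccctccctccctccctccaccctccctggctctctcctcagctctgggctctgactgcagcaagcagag
Col6a2: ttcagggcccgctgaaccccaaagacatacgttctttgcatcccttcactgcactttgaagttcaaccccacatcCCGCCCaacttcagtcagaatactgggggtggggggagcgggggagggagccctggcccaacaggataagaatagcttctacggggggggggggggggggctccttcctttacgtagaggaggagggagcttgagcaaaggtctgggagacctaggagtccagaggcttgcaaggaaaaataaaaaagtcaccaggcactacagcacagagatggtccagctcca
Both strands were searched for 5 motifs, none of which contains another. Of 2 general promoter motifs, TATAAA was held by 13.6% of all windows and CCAAT by 37.4% of them. The motif that Sp1 family factors bind was written GGGCGG, and 35.7% of windows hold it. The motif of AP-1 factors was written TGACTCA, and the inner part of a heat shock element was written GAANNTTC. Col6a1 held a TGACTCA match at position -90 from its start, and 5.2% of 32851 promoter windows hold at least 1. Col6a2 held 1 GGGCGG match. Serpinh1 also held 1 GGGCGG match and no GAANNTTC match, which 7.86% of windows hold. Among the 8 genes Col3a1 alone held the TATAAA motif. These matches describe letters in the window, and an absent match says nothing of a factor.

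Among the tested probe sets of the chosen collagen chains and Serpinh1, those of collagen VI had the largest log2 differences from day 0 in each phase. Col6a1 read 122 and 98 at day 0 in experiments A and B, both below the floor. In experiment A it read 830, 2051 and 3297 on days 1 to 3, 3431, 2514, 4980 and 5391 on days 4 to 7, and 4460, 5408, 4779 and 6271 on days 8, 9, 11 and 14. In experiment B it read 1601, 1893 and 2197 on days 2, 4 and 9. Every sample at 39 °C lay above both day 0 samples, and experiment B lay below experiment A on each of days 2, 4 and 9. With only 2 samples at day 0 such separation is common: 15.7% of all 7726 tested probe sets had it early and 21% late. The phase mean was at least 8.74-fold above day 0 early, at least 17-fold middle and at least 22.1-fold late, as log2 differences 3.13 ± 0.50, 4.09 ± 0.48 and 4.46 ± 0.48 (SE). These are bounds because the day 0 samples stand at the floor, and they move with it: late, the difference was 5.32 with a lower floor and 3.50 with a higher 1.

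Col6a2 had a like course over the same days. It read 351 at day 0 of experiment A and 103, below the floor, at day 0 of experiment B. In experiment A it read 662, 1279 and 1867 on days 1 to 3, 2269, 1616, 2999 and 4939 on days 4 to 7, and 3007, 3835, 3451 and 4352 on days 8, 9, 11 and 14. Experiment B gave 623, 1028 and 1062 on days 2, 4 and 9. No sample at 39 °C overlapped day 0, while the late sample of experiment B lay among the early samples of experiment A. Log2 differences from day 0 were 1.92 ± 0.60 early, 3.08 ± 0.58 middle and 3.43 ± 0.58 late, low estimates because 1 of the 2 day 0 samples was at the floor.

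**Figure D1:**
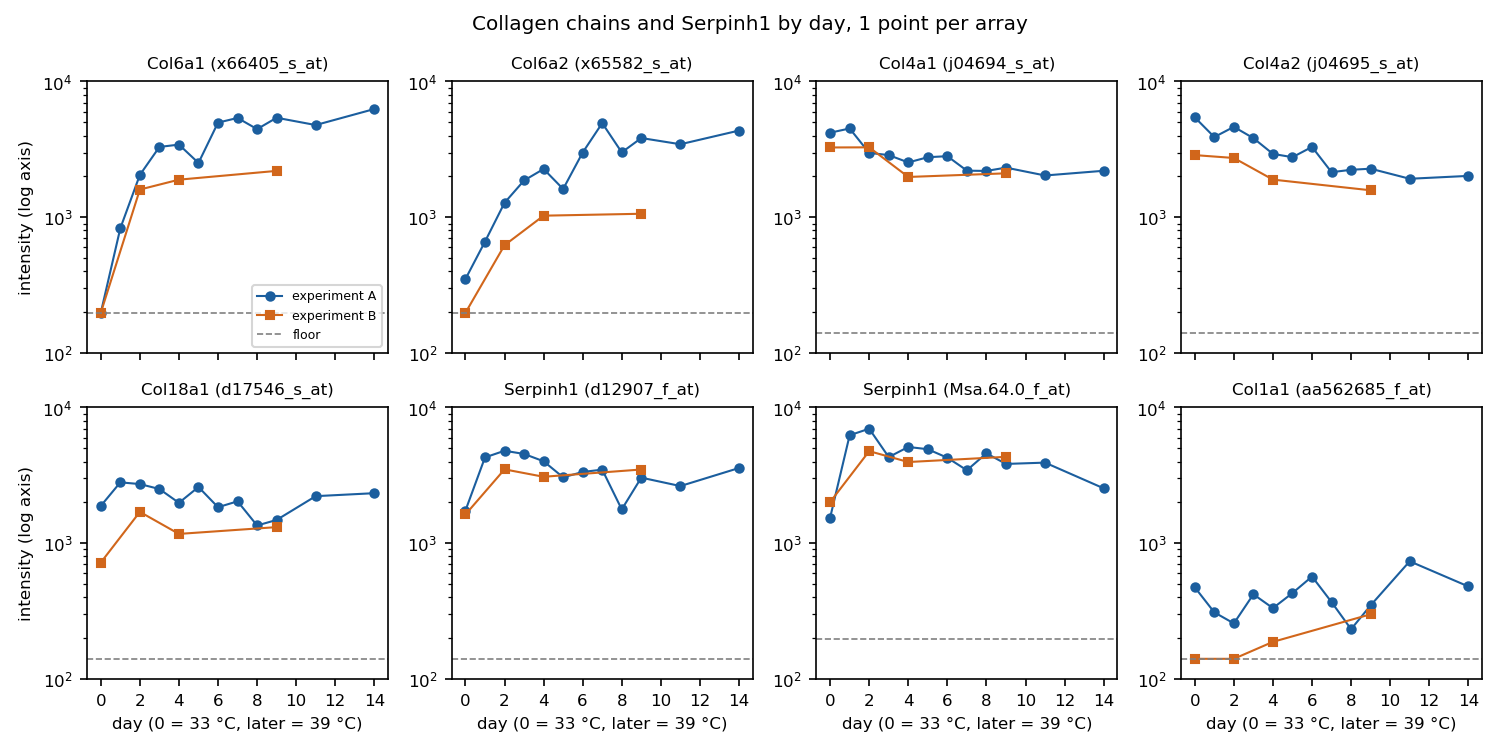
Intensity (log axis) of 8 probe sets on each day, experiment A as circles and experiment B as squares, with values under the floor (dashed) drawn at it; 1 point is 1 array. Col6a1 and Col6a2 lie at or near the floor on day 0 and far above it later, Col4a1 and Col4a2 lie lower on late days than on day 0, Serpinh1 is highest in the first days at 39 °C, and the Col1a1 probe set stays near the floor.

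Collagen IV was bright from the start and ended lower. Col4a1 read 4197 and 3268 at day 0 in experiments A and B. In experiment A it read 4509, 2981 and 2871 on days 1 to 3, 2535, 2770, 2819 and 2205 on days 4 to 7, and 2195, 2322, 2032 and 2201 on days 8, 9, 11 and 14. In experiment B it read 3275, 1982 and 2108 on days 2, 4 and 9. The early samples overlapped day 0, and every middle and late sample lay below both day 0 samples. Log2 differences from day 0 were -0.14 ± 0.24 early, -0.60 ± 0.23 middle and -0.77 ± 0.23 late.

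Col4a2, the partner chain, followed a like course. It read 5444 and 2871 at day 0, a wide gap between experiments. In experiment A it read 3899, 4635 and 3826 on days 1 to 3, 2930, 2771, 3299 and 2149 on days 4 to 7, and 2238, 2280, 1922 and 2018 on days 8, 9, 11 and 14. Experiment B gave 2734, 1895 and 1581 on days 2, 4 and 9. Day 9 was the lowest in experiment B, and in experiment A the late samples lay below all middle samples but that of day 7. Differences from day 0 were -0.09 ± 0.30, -0.63 ± 0.29 and -0.99 ± 0.29, and the late value was -0.53 without the day 0 sample of experiment A and -1.45 without that of experiment B.

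Col18a1 had no steady course. It read 1883 at day 0 of experiment A and 721 at day 0 of experiment B. In experiment A it read 2809, 2729 and 2509 on days 1 to 3, 1985, 2596, 1843 and 2037 on days 4 to 7, and 1352, 1485, 2223 and 2338 on days 8, 9, 11 and 14. In experiment B it read 1703, 1172 and 1315 on days 2, 4 and 9. Late samples lay on both sides of the day 0 sample in experiment A and above it in experiment B. The early difference from day 0, 1.04 ± 0.38, was 0.35 without the day 0 sample of experiment B and 1.73 without that of experiment A. The late difference, 0.54 ± 0.37, was -0.16 and 1.23.

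Serpinh1 was higher at 39 °C than at 33 °C on every day, and highest in the first days. Its design a probe set read 1741 and 1629 at day 0 in experiments A and B. In experiment A it then read 4287, 4800 and 4547 on days 1 to 3, 4017, 3060, 3350 and 3485 on days 4 to 7, and 1776, 3043, 2638 and 3582 on days 8, 9, 11 and 14. The values of experiment B were 3502, 3088 and 3493 on days 2, 4 and 9. All 14 samples at 39 °C lay above both at 33 °C, day 8 of experiment A only just. The difference from day 0 was 1.34 ± 0.27 early, 1.01 ± 0.26 middle and 0.74 ± 0.26 late.

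The design b probe set of Serpinh1 read 1542 and 2010 at day 0. In experiment A it read 6244, 6975 and 4312 on days 1 to 3, 5119, 4926, 4264 and 3449 on days 4 to 7, and 4596, 3839, 3925 and 2539 on days 8, 9, 11 and 14. The values of experiment B were 4769, 3965 and 4330. Both probe sets put the highest Serpinh1 value on day 2 of experiment A, and they differed on day 8, where only the design a probe set dropped. Differences from day 0 were 1.64 ± 0.29 early, 1.29 ± 0.28 middle and 1.10 ± 0.28 late. Both probe sets are of the kind that members of a gene family share, which makes the reading uncertain as to gene.

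The fibrillar chains were dim. All 3 Col1a2 probe sets and the Col5a2 probe set were below the floor on all 16 arrays, the Col1a2 values running from -416 to 24 and the Col5a2 values from -95 to 48. A Col3a1 probe set, from -1 to 125, completes the 5 that were not tested, and values below the floor do not show that these genes are silent. The second Col3a1 probe set was above the floor on 5 arrays, all of experiment A, with 263, 389, 446, 238 and 406 on days 2, 3, 4, 9 and 14. The 3 Col1a1 probe sets, all of the shared kind, were above the floor on 14, 8 and 11 of 16 arrays. The brightest Col1a1 value was 737, on day 11 of experiment A. Their differences from day 0 ran from 0.02 to 0.58 over all phases, each smaller than 1.5 times its SE, and the 3 probe sets did not share an order of phases. For 1 of them (aa562685_f_at) the day 0 sample decided the sign: the late difference of 0.58 ± 0.54 was 1.46 without the day 0 sample of experiment A and -0.29 without that of experiment B, and the early 0.02 was 0.90 and -0.85.

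**Figure D2:**
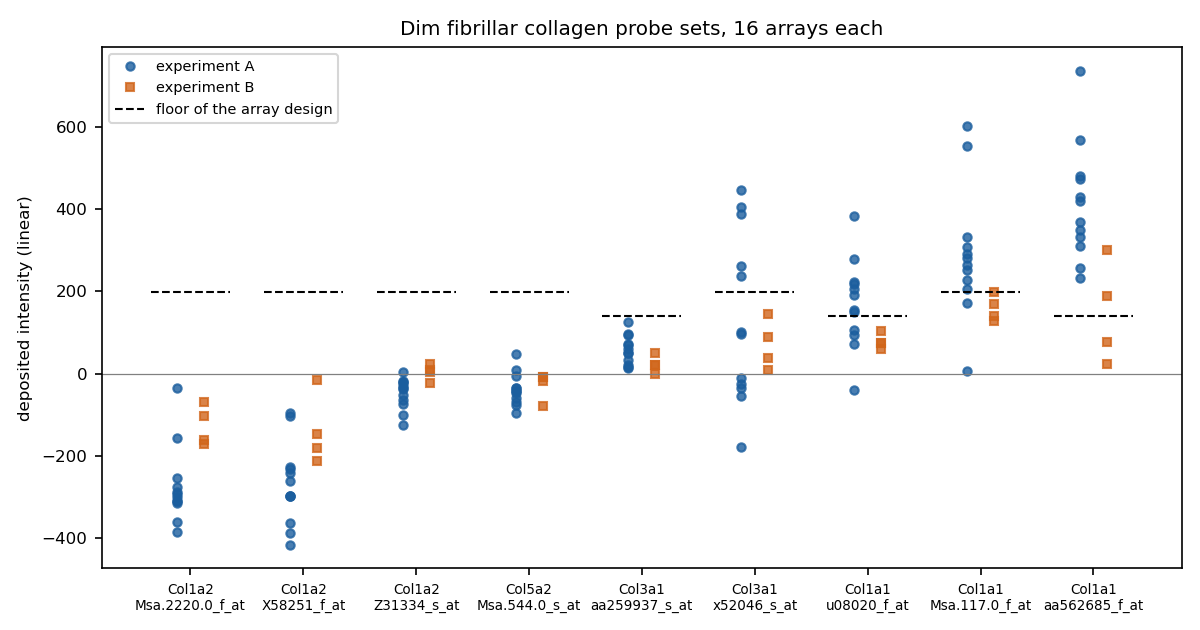
Deposited intensity (linear axis) of the 9 probe sets of Col1a1, Col1a2, Col3a1 and Col5a2, 1 point per array, experiment A as circles and experiment B as squares. The dashed bar is the floor of the design. The Col1a2 and Col5a2 points all lie under the floor, and the Col1a1 points straddle it.

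Over the 11 tested probe sets, 9 lay above day 0 in each phase, with a median log2 difference of 0.54 early, 0.50 middle and 0.54 late. Over all 7726 tested probe sets the median was 0.05, 0.08 and 0.11, and 57.8%, 60.4% and 62.1% lay above day 0. The 2 below were Col4a1 and Col4a2 in all 3 phases. Samples did not overlap day 0 for 4 of the 11 early, beside 15.7% of all, and for 6 of the 11 late, beside 21%. Nothing further is read from these counts, because the genes were chosen on them.

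**Figure D3:**
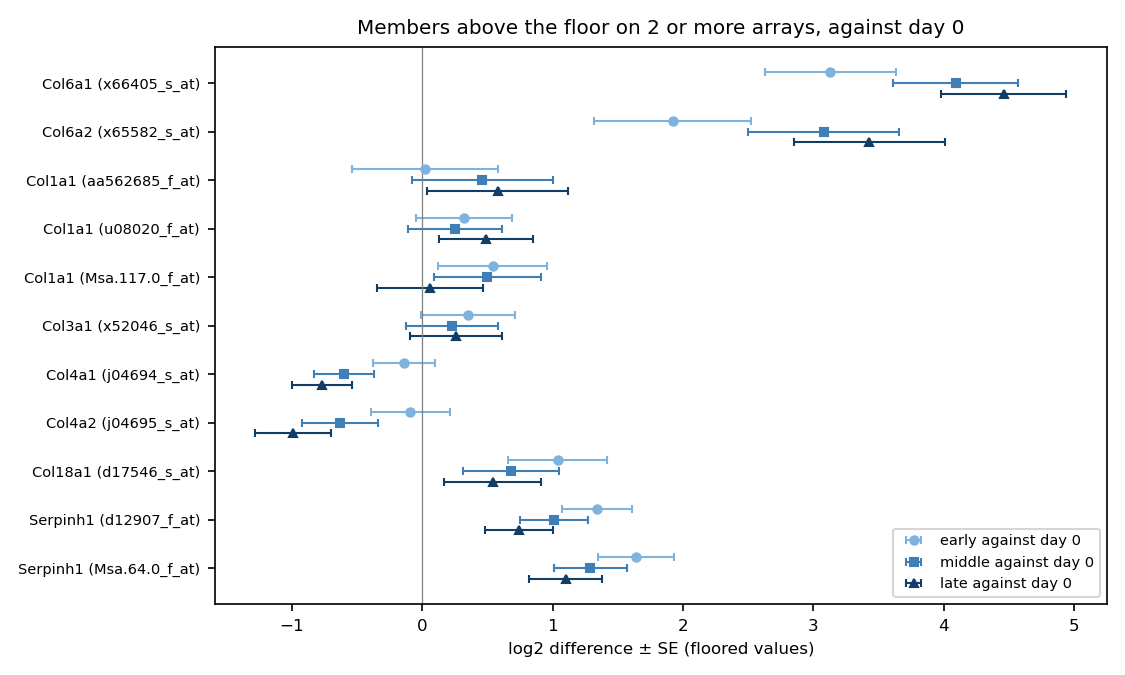
Log2 difference from day 0 (x axis) with its SE as bars for the 11 tested probe sets, early as circles, middle as squares, late as triangles. Col6a1 and Col6a2 stand far to the right, Col4a1 and Col4a2 to the left of 0.

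Days 8 to 14 were then compared with days 1 to 3, all at 39 °C, to set later against earlier days under 1 temperature. None of the 11 probe sets passed limma's test (adjusted p under 0.05), and 6 had an unadjusted p under 0.05. Of all probe sets, 0.427% passed as higher and 0.557% as lower, with 773 at an unadjusted p under 0.05. Col6a1 was at a log2 difference of 1.33 ± 0.39 (adjusted p = 0.126) and Col6a2 at 1.51 ± 0.47 (adjusted p = 0.168). Col4a1 was at -0.63 ± 0.18 (adjusted p = 0.133) and Col4a2 at -0.90 ± 0.23 (adjusted p = 0.0768). The early and late samples did not overlap for Col4a1 and Col4a2, 2 of 11 probe sets, against 3.86% of all tested. The Serpinh1 probe sets were at -0.59 ± 0.21 (adjusted p = 0.241) and -0.54 ± 0.23 (adjusted p = 0.394), and Col18a1 at -0.50 ± 0.29 (adjusted p = 0.633).

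The labels share an experiment between days, so the comparison was also fitted with experiment as a block. Then 3 of 11 were called: Col6a2 higher (1.45 ± 0.32, adjusted p = 0.0209), Col4a1 lower (-0.64 ± 0.16, adjusted p = 0.0395) and Col4a2 lower (-0.93 ± 0.15, adjusted p = 0.00301). Of all 7726 probe sets, this fit called 82 higher and 102 lower. Col6a1 kept its size but was not called with the block (1.30 ± 0.34, adjusted p = 0.0569). Without the block, Col6a1 was called on leaving out day 3 of experiment A (1.64) or, in experiment B, day 9 (1.58), and Col6a2 without day 9 of experiment B (1.86). Over all alternatives tried, the adjusted p ran from 0.0209 to 0.472 for Col6a2, from 0.0438 to 0.462 for Col6a1, from 0.0395 to 0.454 for Col4a1 and from 0.00301 to 0.234 for Col4a2.

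The steps between neighbouring phases were not past the threshold. For middle against early 0 of 11 were called and 4 had an unadjusted p under 0.05 (Col6a1, Col6a2, Col4a1 and Col4a2), beside 0% of all probe sets called in either direction and 382 with an unadjusted p under 0.05. For late against middle 0 of 11 were called and 0 had an unadjusted p under 0.05, beside 0% of all called in either direction and 289 with an unadjusted p under 0.05. The phases of Col6a1 ran day 0, early, middle, late, and its late and middle means (4370 and 3380 as geometric means) were 0.37 ± 0.36 apart. The order was the same for Col6a2, 0.34 ± 0.44 apart at that step, and reversed for Col4a1 (-0.17 ± 0.17) and Col4a2 (-0.36 ± 0.22). For none of the 4 chains did the late and middle phases differ past the threshold.

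A trend over the 14 samples at 39 °C, per doubling of the day, was added after the values had been seen. Col6a1 rose by 0.65 ± 0.11 per doubling (limma, adjusted p = 0.00338) and Col6a2 by 0.71 ± 0.15 (adjusted p = 0.0114). Col4a1 fell by 0.26 ± 0.06 (adjusted p = 0.0361) and Col4a2 fell by 0.32 ± 0.08 (adjusted p = 0.043). These were 2 of 11 higher and 2 of 11 lower, beside 1.16% of all probe sets called higher and 1.68% lower. The design b probe set of Serpinh1, at -0.25 ± 0.07 (adjusted p = 0.077), was not called in this fit. It was called lower with experiment as a block (-0.26 ± 0.07, adjusted p = 0.0312), in experiment A alone (-0.30), with plain eBayes (-0.25) and with the noise covariate (-0.28), and its adjusted p ran from 0.0267 to 0.251 over all alternatives.

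The calls of the trend, more than its slopes, depended on single samples. Without day 1 of experiment A none of the 11 was called, with 0.55 ± 0.14 for Col6a1 (adjusted p = 0.0553), 0.73 ± 0.19 for Col6a2 (0.0643), -0.20 ± 0.08 for Col4a1 (0.24) and -0.35 ± 0.11 for Col4a2 (0.11). The collagen VI calls held when any other single sample was left out, and over all alternatives their adjusted p ran from 0.000464 to 0.0553 for Col6a1 and from 0.000517 to 0.0643 for Col6a2. The Col4a1 call was also absent without day 2 of experiment B, or day 3, 4, 5, 7, 9, 11 or 14 of experiment A, at -0.28 to -0.25. For Col4a2 it was absent too without day 9 of experiment B, or day 2, 3, 4, 5, 7, 8, 9, 11 or 14 of experiment A, at -0.33 to -0.27. The direction of all 4 chains was the same in each of these fits, and the adjusted p ran from 0.00879 to 0.24 for Col4a1 and from 0.00254 to 0.11 for Col4a2.

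**Figure D4:**
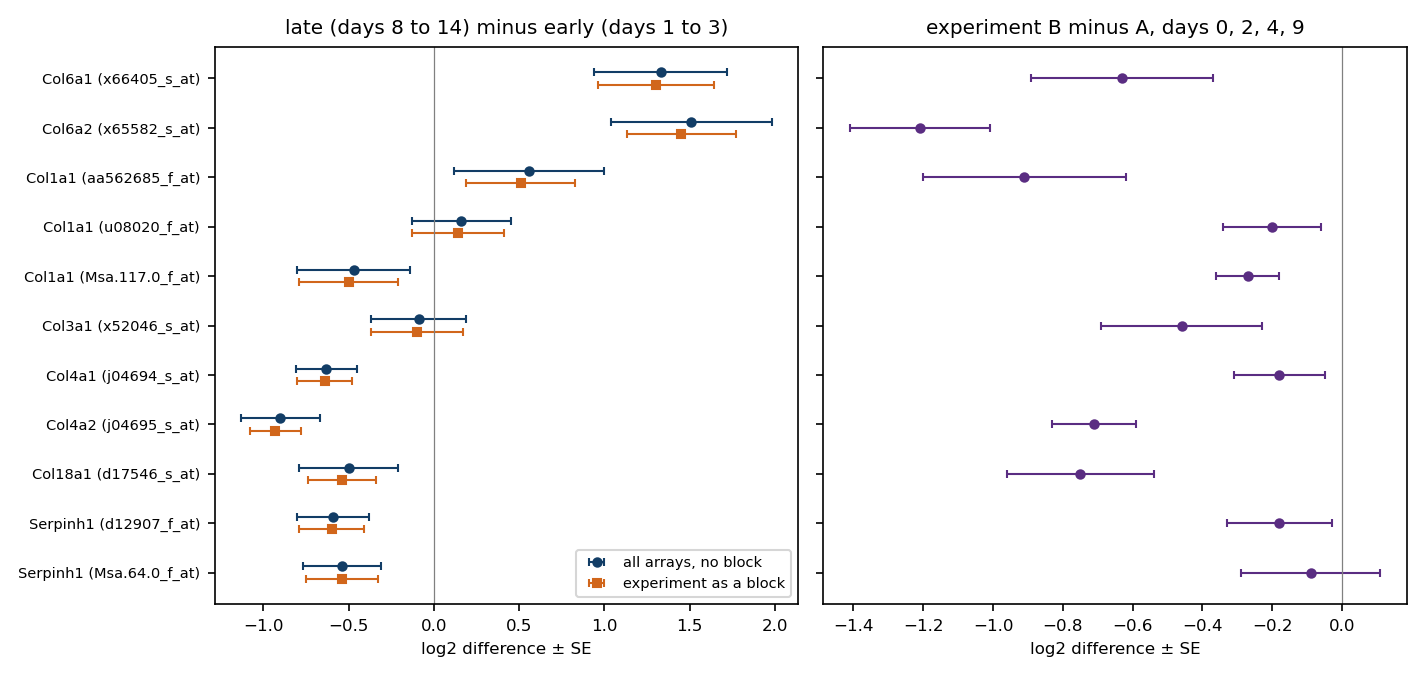
Left, log2 difference of late minus early (x axis, bars are SE) without a block (circles) and with experiment as a block (squares); right, experiment B minus A over days 0, 2, 4 and 9. The 2 collagen VI probe sets lie right of 0 on the left side, collagen IV and Serpinh1 lie left, and all 11 lie left of 0 on the right side.

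Experiments A and B were compared on the 4 days that both hold, with day as a factor and 8 arrays per design. All 11 probe sets were lower in experiment B, at -1.21 to -0.09 with a median of -0.46, against a median of -0.05 over all 7726, of which 57.4% were below 0. Only Col4a2 was called, at -0.71 ± 0.12 (limma, adjusted p = 0.0325), 1 of 11 lower and 0 higher beside 5.32% of all called lower and 4.36% higher. Col6a2 stood at -1.21 ± 0.20 (adjusted p = 0.0502), Col18a1 at -0.75 ± 0.21 (0.0804) and Col6a1 at -0.63 ± 0.26 (0.211). The difference for Serpinh1 was -0.18 ± 0.15 and -0.09 ± 0.20, so its 2 probe sets were the closest between experiments together with Col4a1 (-0.18 ± 0.13).

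The experiments also differ across brighter probe sets. Among the 1154 with a mean log2 of at least 10, the median difference of B from A was -0.19, and 64.7% were below 0. All 7 bright probe sets described here are among those below 0. With the arrays' noise level as a covariate, Col4a2 was at -0.62 ± 0.13 and was not called (its adjusted p over all alternatives ran from 0.00852 to 0.148), and none of the 7726 probe sets was called in that fit. The part of the noise level in the difference was not tested further, and on leaving out any 1 of the 4 days the fit also called no probe set.

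Both experiments carried the same directions for collagen VI and collagen IV. From day 0 to day 9, Col6a1 was higher by 4.77 in experiment A and 3.47 in experiment B on the floored log2 scale, and Col6a2 by 3.45 and 2.42. Col4a1 changed by -0.85 and -0.63, and Col4a2 by -1.26 and -0.86. From day 2 to day 9, all at 39 °C, Col6a1 changed by 1.40 and 0.46, Col6a2 by 1.58 and 0.77, Col4a1 by -0.36 and -0.64, and Col4a2 by -1.02 and -0.79. Each experiment has 1 array per day, so these differences have no replicate check, and whether their sizes differ was not tested.

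Other collagen genes were followed as 4 lists. Of 33 other collagen chains, 12 genes with 14 probe sets were tested, and none was called in any comparison at 39 °C or in the trend. Of 30 genes for folding, modification and processing, 11 genes with 13 probe sets were tested, and again none was called there. Nor was any of 5 collagen receptor probe sets or 5 degradation probe sets. Late against early, the list medians were 0.15, 0.19, 0.16 and 0.33, beside 0.05 over all probe sets and -0.47 over the 11 described above. Those 11 ran from -0.90 for Col4a2 to 1.51 for Col6a2, so their median hides opposite directions. The list medians hide opposite directions as well. Values in the 4 lists ran from -1.26 ± 0.35 for Lox (limma, adjusted p = 0.099) to 0.55 ± 0.31 for Pcolce (adjusted p = 0.623), both of the folding, modification and processing list.

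Between experiments, 2 of the 37 tested probe sets of these lists were called, both lower in B, which is 5.41% beside 5.32% of all probe sets. They were Col4a4, a further collagen IV chain (-1.77 ± 0.26, adjusted p = 0.0407), and Bmp1, the procollagen C-proteinase (-1.54 ± 0.17, adjusted p = 0.0324). A second Bmp1 probe set stood at 0.67 ± 0.31 (adjusted p = 0.251), so the 2 probe sets of that gene disagree. Both calls were lost with the noise covariate, at -1.26 for Col4a4 and -1.23 for Bmp1. Of the receptors, the discoidin domain receptor Ddr2 was at -0.90 ± 0.22 (adjusted p = 0.0954) and Ddr1 at -0.35 ± 0.18. Of the proteases, Mmp14, a membrane-bound collagenase, was at -0.48 ± 0.17 and Mmp2, a gelatinase, at -0.95 ± 0.35, neither called. Ddr1 was 0.50 ± 0.33 late against early (adjusted p = 0.687) and Mmp14 -0.59 ± 0.24 (adjusted p = 0.354).

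Against day 0 the lists are a description, as for the chains. Of all 7726 tested probe sets, 57.8%, 60.4% and 62.1% lay above day 0 early, middle and late, with medians of 0.05, 0.08 and 0.11. In the folding, modification and processing list all 13 tested probe sets lay above day 0 early, 12 of 13 middle and 13 of 13 late, with medians of 1.00, 0.63 and 0.65. The ends of the list late were P4ha1, a prolyl 4-hydroxylase subunit, at 1.61 and a Bmp1 probe set at 0.05. Among the other collagen chains 8, 9 and 11 of 14 lay above day 0, with medians of 0.04, 0.25 and 0.22. The 5 receptor probe sets had medians of 0.21, 0.44 and 0.54, and the 5 degradation probe sets 0.35, 0.33 and 0.48.

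Marker genes of cell types moved with the same days, and their part in the collagen values was not tested. In the fibroblast list, 7 of 9 genes were above the floor somewhere, Lum and Thy1 were below it on every array, and the summed intensity ran from 4190 to 4783 at day 0 and from 7135 to 24973 late. Its members did not move together. Decorin (Dcn), a collagen-binding proteoglycan, had geometric means of 198 (the floor), 1390, 8300 and 14300 over the 4 phases, while Fbln2 went from 1990 to 579 and S100a4 from 1590 to 814 between day 0 and late. Twist1 stood at 421 and 455, and Pdgfra and Prrx1 were above the floor on 1 and 2 arrays. In the epithelial list, 3 of 6 genes were above the floor somewhere, Cdh1, Epcam and Krt19 were not, and the sum ran from 4442 to 5998 at day 0 and from 868 to 1631 late. Krt18 went from 4800 to 2780, 939 and 770. Krt8 and Krt14 stayed near the floor and did not follow that course. From day 0 to late, the Krt8 probe sets went from 156 to 177 and from 206 to 199, and a Krt14 probe set from 198 to 219. The muscle list went from 3524 to 9068 at day 0 to 1395 to 3995 late, with Acta2 at 1770 at day 0 and at the floor late. Tagln also went lower, from 2740 to 935. Myog, Myod1 and Des did not, with geometric means of 746, 269 and 243 at day 0 and 798, 289 and 253 late. Of the otic list, Atoh1 and Sox2 were below the floor on every array, and Gata3 had geometric means of 198 at day 0 and 595 late. In the endothelial list Pecam1 and Cdh5 were below the floor throughout, while Kdr, Tek and Tie1 were above it on some arrays. Their geometric means were 242, 141 and 198 at day 0 and 348, 168 and 339 late. The endothelial sum ran from 218 to 471 at day 0 and from 584 to 1062 late. The macrophage and blood list summed to between 2206 and 5678 at day 0 and between 4202 and 13567 late. In it Csf1r was below the floor on every array. Geometric means at day 0 and late were 1640 and 4580 for Lyz2, 881 and 1300 for Ptprc, and 164 and 322 for Cd68. The Hba-a1 probe sets went different ways, from 548 to 426 and from 214 to 320.

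The probe sets whose log2 values followed a chain most closely over the 16 samples were found by Pearson's r, as a description. For Col6a1 they were 2 probe sets of Tmem59 (r = 0.971 and 0.965), Vps28 (0.963), Selenok (0.958) and Pcbd2 (0.956), and in experiment A alone r was 0.978, 0.972, 0.957, 0.949 and 0.945. For Col4a1 they were Basp1 (0.91), Tubb3 (0.901), Gsto1 (0.899), Rpl7a (0.894) and Ube2c (0.88). For the design b probe set of Serpinh1 they were Lxn (0.884), Jak2 (0.849), Grn (0.84), Ass1 (0.839) and Agrn (0.83). For Col3a1 they were Gh and Pglyrp1 (0.841 each), Ptprf (0.836), 1190005I06Rik (0.709) and Fzd9 (0.706), where 11 of the 16 Col3a1 samples share the floor value. All points share the step from 33 °C to 39 °C and the experiment, which such a correlation holds as well.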

How the data were processed

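Total RNA of 16 samples was read on 2 array designs. The authors deposited linear intensities, scaled so that the mean of each array with 2% trimmed at each end lay between 300.4 and 300.8, as tested on the values. The software is not given in the sources used here, and 22.7% (design a) and 33% (design b) of the deposited intensities are negative. Values below the floor, which was the 75th percentile of the absolute negative values in each design, were set to it before log2. Controls (61 per design) were left out, and 7726 probe sets above the floor on at least 2 arrays were tested. Names come from the platform annotation.

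Each design had its own linear model in limma (version 3.58.1, R version 4.3.3), with trended and robust empirical Bayes moderation. Tests were two-sided, and p-values of the 2 designs were pooled for Benjamini-Hochberg adjustment. The residual degrees of freedom were 12 for phases and 3 for experiment B against A. The B minus A differences of any 2 days correlated (r between 0.33 and 0.70 in 6 day pairs), and the labels share the experiment, so experiment pairs the samples and was used as a block beside the main fit. Named genes were all probe sets of the 10 genes, the genes of 4 collagen lists that were called or, in a list without calls, its 2 of smallest adjusted p, and the 5 nearest probe sets for Col6a1, Col3a1, Col4a1 and Serpinh1. P4ha1, Lox and Pcolce, as ends of a range over the lists, Col5a1 and the marker genes were named outside this rule, after their values were seen. The genes and lists were chosen with earlier results of these data known. The number of arrays limits the precision.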

Additional observations from a re-analysis of the deposited data

Results flagged for a closer look

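In 33 groups of 4 or 5 samples, the highest and lowest log2 value were compared with the rest, and 4 stood apart by Dixon's critical value. Chance passes it in about 1 of 20 groups of unfloored values, a rate that does not hold for the Col3a1 and Col1a1 groups below, where several samples share the floor. Col6a2 on day 9 of experiment B was the lowest late sample, at 10.05 (intensity 1062), with the next at 11.55. The second Col3a1 probe set was highest at 8.80 on day 4 of experiment A (intensity 446), where all other middle samples were at the floor, and at 8.67 on day 14 of experiment A (intensity 406), with the next late sample at 7.89. A Col1a1 probe set was highest at 8.38 on day 8 of experiment A (intensity 333), with the next late sample at 7.68.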

How the results depend on the processing

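No difference between days at 39 °C changed direction past the threshold under the processing alternatives tried or when 1 sample was left out. Late against early, where 0 of the 11 probe sets were called, 3 were called with experiment as a replicate block (Col6a2, Col4a1, Col4a2), and 1 each with experiment A alone, quantile normalization, the noise level as a covariate, or early taken as days 1 and 2. Leaving out 1 sample gave 0 to 2. Over all probe sets the count of 76 became 184 with the block, 31 in experiment A alone, 40 without the filter, 170 with the noise covariate and 118 with early as days 1 and 2; on leaving out 1 sample it ran from 30 (without day 2 of experiment A) to 118 (without day 3), with 32 without day 1, 39, 42 and 46 without days 14, 11 and 9 of experiment A and 41 without day 2 of experiment B. For experiment B against A, where 1 was called, there were 2 of 12 with a lower floor and 3 of 16 without the filter. With the filter at 8 arrays there were 4 of 10. Of 11, there were 3 on the arcsinh scale, 2 with plain eBayes and 0 with the noise covariate, and 0 to 1 on leaving out a sample. Over all probe sets the count of 748 of 7726 became 928 of 9608 with a lower floor and 1433 of 13057 without the filter. It became 1450 of 5665 with the stricter filter. Of 7726, it became 1654 on the arcsinh scale, 737 with plain eBayes and 0 with the noise covariate. For the trend, added after seeing the data, 4 of 11 became 2 of 16 without the filter and 2 with early as days 1 and 2. On leaving out a sample there were 0 to 4. The replicate block, experiment A alone, plain eBayes and the noise covariate each gave 5. Over all 7726 probe sets the trend's 220 became 396 with the block, 278 in experiment A alone, 278 with plain eBayes and 348 with the noise covariate. It became 196 with early as days 1 and 2 and 118 of 13057 without the filter. Without day 1 or day 14 of experiment A it became 125 and 127. The middle against early and late against middle counts stayed at 0 for the 11 in every setting. The causes of these shifts were not tested. Signal over the floor limits the fibrillar chains among the 10 genes, 5 of whose probe sets have no usable value.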
